A study of Glycine max with 6 samples.

Results

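The most abundant leaf transcripts of soybean (Glycine max) were described in the genotypes HN44 and SN14. The genes were chosen by their measured level, a mean of at least 500 FPKM over the 6 libraries, among rows of the authors' table that carry an NCBI gene number. FPKM is the number of fragments scaled by transcript length and by the fragments of the library, so that levels can be set side by side between genes. This gave 184 genes out of 41759 rows, of which 38907 carry such a number. Another 6 genes above the level were left out by family: RBCS1, RBCS2, LOC547605 (whose span contains RBCS2), the vegetative storage protein gene VSPA, and the tonoplast aquaporin genes SPCP1 and LOC100527509. Just inside the level stood LOC100804320 at a mean of 503 FPKM, LOC100820476 at 505 and LOC100808549 at 511. Just outside stood LOC100306434 at 499.9, LOC100799813 at 498.9 and LOC100526941 at 497.9.

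Leaves were taken from plants of the 2 genotypes grown in an experimental field, with 3 libraries each, called HN44-1 to HN44-3 and SN14-1 to SN14-3 here. The series sets genotypes of different water use efficiency against each other, without saying in the labels which of these 2 uses water more efficiently. Plant age, leaf position and time of sampling are not given in the sources used here. Whether each library is a plant of its own is not stated in the labels, and the p-values below therefore rest on the library-to-library spread, part or all of which may be technical. In bulk leaf RNA, fewer cells of a type and less RNA per cell cannot be told apart.

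In a mature leaf the mRNA pool is dominated by nuclear genes for chloroplast proteins. Chlorophyll a/b-binding proteins collect light, the photosystems and the cytochrome complex pass electrons on, and the Calvin cycle fixes carbon through Rubisco, which needs Rubisco activase to clear inhibitory sugar phosphates from its active site. When Rubisco takes oxygen instead of carbon dioxide, photorespiration salvages the product through the peroxisome and the mitochondrion.

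The RefSeq table matched 180 of the 184 genes, and 30 have a symbol or a synonym that is more than a LOC code. For all others the files hold no role, and none is given here. The role lists below were matched on symbols and synonyms alone, so unnamed genes of the same families are not in them. The leaf label was checked against markers: the light-harvesting list summed to between 11280 and 20580 FPKM per library, while the 1 tested nodule gene, NOD33, stood between 2.26 and 8.23 FPKM and the 1 tested seed gene, KTI-3, between 34.02 and 58.42 FPKM. The libraries summed to between 764700 and 821700 FPKM in HN44 and between 856300 and 877300 in SN14. HN44-3 stood between HN44-1 and HN44-2 in 176 of the 184 genes, and in 73.6% of all 27140 tested genes. The corresponding counts for SN14-1, SN14-2 and SN14-3, each set between the other SN14 libraries, were 68, 61 and 55. HN44 means are therefore given over HN44-1 and HN44-2 (n = 2), SN14 means over its 3 libraries (n = 3). Whether HN44-3 is a sample independent of HN44-1 and HN44-2 was not tested. If it is not, a test with 3 HN44 libraries counts 1 too many and its p is too small, so p-values of single genes and of shares are given also without HN44-3.

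The 184 genes held between 27.4% and 31.1% of the summed FPKM of every library. Their share was 27.4%, 31.1% and 29.2% in HN44-1, HN44-2 and HN44-3, while the SN14 libraries, in the same order, gave 30.2%, 31.1% and 30.4%. The lowest share was that of HN44-1, and HN44-2 nearly equalled SN14-2. The HN44 mean was 29.2 ± 2.63% (SD, n = 2). The SN14 mean was 30.6 ± 0.47% (SD, n = 3). Over 3 libraries each, the difference was -1.36 percentage points, with p = 0.3 in an exact two-sided permutation test, whose smallest possible p is 0.1. Without HN44-3 the exact p was 0.6, where the smallest possible is 0.2. The groups overlapped.

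The 10 most abundant genes of the list took 6.20%, 6.55% and 6.49% in HN44, against 6.31%, 6.68% and 6.38% in SN14. The 50 most abundant took 14.7%, 16.7% and 15.8% in HN44, against 15.9%, 17.2% and 16.3% in SN14. The exact permutation p was 0.8 for the 10 genes with and without HN44-3, and 0.4 for the 50, or 0.6 without HN44-3. The remaining 134 genes took 12.7%, 14.4% and 13.5% in HN44 and 14.3%, 13.9% and 14.1% in SN14. The 6 genes left out by family behaved otherwise, at 7.33%, 12.3% and 9.30% in HN44 and 14.9%, 15.01% and 15.8% in SN14, without overlap and with an exact permutation p of 0.1, or 0.2 without HN44-3. Measured against a total without those 6 genes, the share of the 184 was 29.5%, 35.4% and 32.2% in HN44 and 35.5%, 36.6% and 36.1% in SN14. On that base the groups did not overlap, the difference was -3.68 percentage points, and the exact permutation p was 0.1, or 0.2 without HN44-3, each the smallest it can be. HN44-2 was then only just below SN14-1. This base was chosen after seeing the data.

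**Figure D1:**
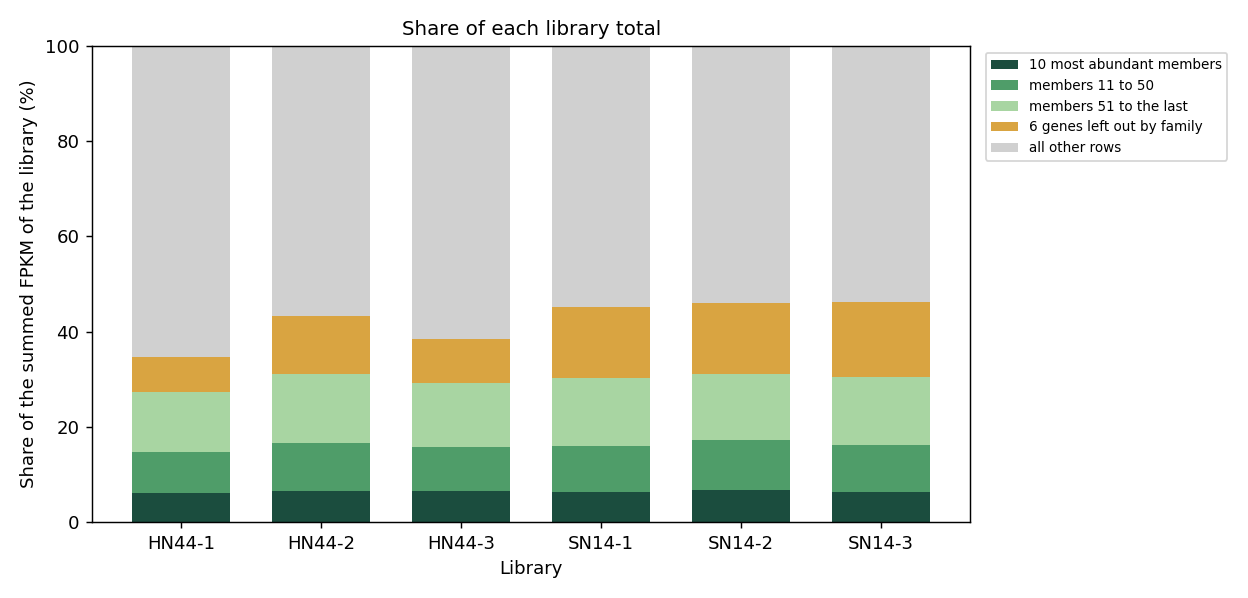
Share of the summed FPKM of each library, in percent, held by the 10 most abundant genes, by those ranked 11 to 50 and 51 to 184, by the 6 genes left out by family and by all other rows. The green part, the 184 genes, runs from 27.4% in HN44-1 to 31.1% in HN44-2 and SN14-2, while the part left out by family is smaller in the HN44 libraries.

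Light-harvesting genes led the list. LOC100805310, with the synonyms CAB3 and LHCP, was the most abundant of the 184 and lies on chromosome 8 (6275720 to 6276690 in the authors' table), where its span overlaps LOC102663839. It stood at 6126, 7282 and 7088 FPKM in HN44, against 8348, 8077 and 10133 in SN14. All HN44 values were below all SN14 values, and the gene did not pass the test described below. The gene with the symbol CAB3, on chromosome 5 (32149813 to 32150781), stood at 4862, 6017 and 5704 FPKM in HN44 and 7424, 5738 and 6664 in SN14, with overlap. Genes of such closely related families can share reads, and no sequence was compared here, so the split between copies is uncertain. LOC100793702, with the synonym Cab-6, had 228, 1313 and 635 FPKM in HN44 and 2219, 1177 and 1541 in SN14. Its HN44 libraries were 5.77-fold apart and its groups overlapped, since HN44-2 lay above SN14-2. None of the 5 tested light-harvesting genes found by name passed in either direction. The other 2, LHCB1-7 and LOC547819, are below the level of 500 FPKM and had means of 214 ± 224 and 83.8 ± 101 FPKM in HN44, against 759 ± 461 and 687 ± 544 in SN14. Together the 3 members took 1.47%, 1.78% and 1.71% of HN44 libraries and 2.05%, 1.72% and 2.14% of SN14 libraries.

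Of the electron transport genes, PETC varied least over the libraries and PSAD more. PSAD, for the photosystem I subunit that docks ferredoxin, stood at 2933, 4983 and 3907 FPKM in HN44 and 4367, 4036 and 4198 in SN14. HN44-1 and HN44-2 were the lowest and the highest of the 6. PETC, for the Rieske iron-sulfur protein of the cytochrome complex, stood at 1348, 1410 and 1361 FPKM in HN44 and 1406, 1546 and 1406 in SN14. Its 1.15-fold distance between the lowest and the highest library was the smallest of the 184 genes. ATPC, for the gamma subunit of the chloroplast ATP synthase, stood at 517, 538 and 522 FPKM in HN44, against 617, 880 and 829 in SN14. Its groups did not overlap, and its adjusted p was 0.129 by limma, or 0.394 without HN44-3. ELIP, for an early light-inducible protein, stood between 1300 and 1676 FPKM in the 6 libraries, a 1.29-fold range.

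Rubisco activase genes held ranks 2 and 3. RCABETA, on chromosome 18 (2855470 to 2859366), had 9877, 7872 and 8867 FPKM in HN44, against 4121, 6898 and 4316 in SN14. The groups did not overlap, and HN44-2 and SN14-2 were the nearest values. Its log2 difference was 0.83 ± 0.24 (SE), with an adjusted p of 0.0983 by limma that became 0.339 without HN44-3. RCA11, on chromosome 11, had 8150, 6487 and 7404 FPKM in HN44 and 5497, 7429 and 3782 in SN14. Its span of 12826 bases overlaps 3 other expressed rows, and its groups overlapped. RCAALPHA stood at 1108, 1021 and 1054 FPKM in HN44 and 1143, 1347 and 813 in SN14. The 3 activase genes took 2.50%, 1.87% and 2.21% of HN44 libraries, against 1.23%, 1.80% and 1.04% of SN14 libraries. These shares did not overlap, with an exact permutation p of 0.1, or 0.2 without HN44-3, each the smallest possible, and the gap between HN44-2 and SN14-2 was small. In the Calvin cycle list, 0 of 6 tested genes passed in limma; the non-members RCA14, FBA and RCA03 had means over the 6 libraries of 305, 183 and 12.3 FPKM.

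Photorespiration was represented by catalase and by serine hydroxymethyltransferase. Catalase destroys the hydrogen peroxide made in the peroxisome. CAT5 had 1568, 1186 and 1380 FPKM in HN44 and 813, 1205 and 442 in SN14, with overlap at SN14-2. CAT4 had 1515, 1172 and 1337 FPKM in HN44, against 620, 1128 and 574 in SN14. Its groups did not overlap, yet HN44-2 and SN14-2 differed by less than SN14-2 and SN14-1 did. The mitochondrial serine hydroxymethyltransferase gene LOC100499634 (GmSHMT08m) had 1488, 1193 and 1329 FPKM in HN44 and 1015, 1327 and 1046 in SN14. None of the 8 tested genes of the list passed in limma, with and without HN44-3, and its smallest adjusted p with 6 libraries was 0.124. The non-member catalase genes CAT1 and CAT3 averaged 39.0 and 41.7 FPKM over the 6 libraries.

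Antioxidant, nitrogen and isoprenoid genes followed. Iron superoxide dismutase turns superoxide into hydrogen peroxide. Its gene SODB had 1526, 2298 and 1878 FPKM in HN44 and 1432, 2490 and 1695 in SN14. SODB2 had 885, 1287 and 1080 FPKM in HN44 and 619, 1457 and 740 in SN14. In both genes HN44-2 and SN14-2 were the highest libraries of their genotype. GS-2, a gene for glutamine synthetase, which binds ammonium into glutamine, stood at 754, 1022 and 862 FPKM in HN44 and 1263, 1133 and 947 in SN14. INR2, for nitrate reductase, which starts nitrate assimilation, stood at 929, 548 and 770 FPKM in HN44, against 507, 392 and 329 in SN14. Its adjusted p was 0.104 by limma, or 0.35 without HN44-3. Its SN14 mean was 409 FPKM, so it reached the level of 500 FPKM only through HN44, and its lack of overlap is in part set by the choice. The alanine aminotransferase gene ALAAT2 stood at 762, 768 and 760 FPKM in HN44 and 712, 1024 and 817 in SN14. DXR2, of the plastid isoprenoid pathway, stood at 1627, 1423 and 1510 FPKM in HN44, against 637, 1191 and 544 in SN14. The groups did not overlap, and the adjusted p by limma was 0.0984, or 0.327 without HN44-3.

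**Figure D2:**
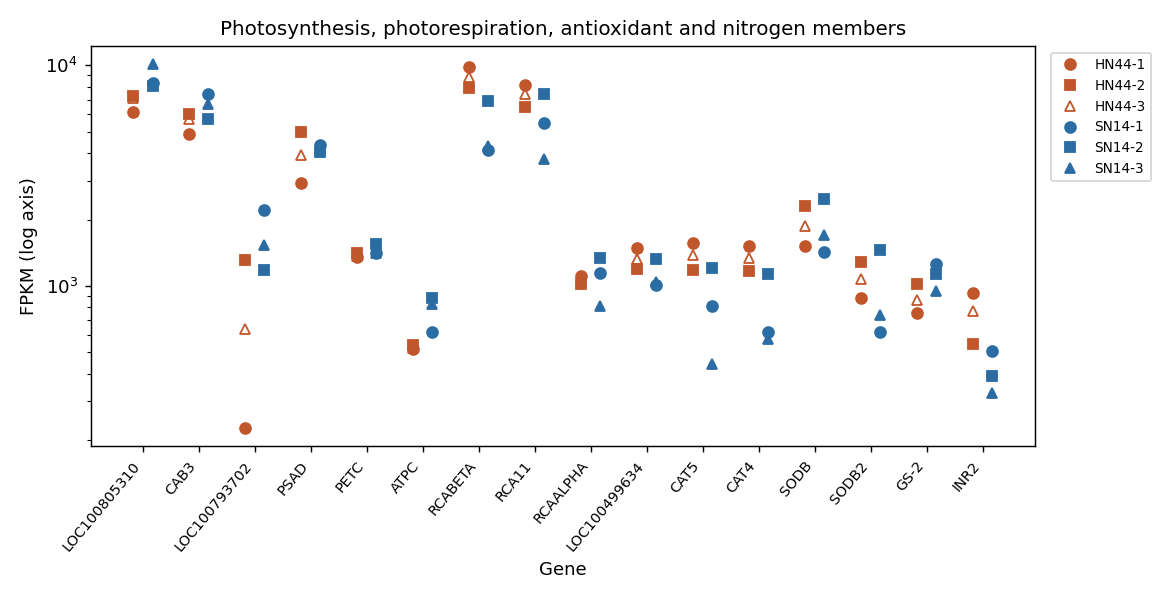
FPKM on a log axis of 16 members with a known role in each library, HN44 in orange left of SN14 in blue, with the marker shape giving the library number and HN44-3 drawn hollow. PETC keeps within 1.15-fold, whereas LOC100793702 (Cab-6) runs from 228 FPKM in HN44-1 to 2219 in SN14-1.

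Polyubiquitin genes, often used as a constant standard, were not among the steadiest. LOC100799042 (Gmubi3) stood at 1253, 990 and 1122 FPKM in HN44 and 967, 741 and 1321 in SN14, a 1.78-fold range. LOC100791065 (SUBI-1) stood at 912, 542 and 742 FPKM in HN44 and 660, 643 and 660 in SN14, a 1.68-fold range, steady within SN14 alone. Both ranges were below the median range over the 6 libraries, 1.92-fold for the 184 genes and 1.87-fold for all tested genes on FPKM + 1. The other genes of the same list, all of actin or tubulin, lay far below, at means between 1.7 and 62.8 FPKM. In the list of 11 no gene passed in limma. None of the 15 tested translation genes found by name was a member and none passed, with TUFA highest at 296 FPKM and TEFS1 next at 286. Whether unnamed members belong to translation is not known from the files. Neither of the 2 chlorophyll synthesis genes, CHLH and CHLI, was a member, and neither passed. Of 7 tested lipoxygenase genes found by name none was a member and none passed.

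Of the 10 most abundant genes, 5 had no role in the files. LOC100781868 on chromosome 19 had 3347, 5491 and 4207 FPKM in HN44 and 5607, 6113 and 5197 in SN14. LOC100499745 had 4151, 3538 and 4127 FPKM in HN44, against 4881, 6395 and 6533 in SN14. LOC100815789 had 3275, 4390 and 3640 FPKM in HN44, against 5462, 4581 and 4940 in SN14. In the last 2 the groups did not overlap, and in the first HN44-2 exceeded SN14-3. LOC100499708 had 2545, 3703 and 3018 FPKM in HN44, against 4661, 4403 and 4730 in SN14. LOC100305932 had 2129, 4057 and 2967 FPKM in HN44, against 4986, 4557 and 4157 in SN14. In both, HN44-1 was the lowest of the 6 libraries and HN44-2 the nearest to SN14, without overlap. None of the 5 passed the test.

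HN44 was then compared with SN14 across all genes with limma on log2(FPKM + 1). With 6 libraries, 5 of the 184 genes passed an adjusted p of 0.05, or 2.72%, beside 3.78% of the 27140 tested genes. Of the 5, 2 were higher and 3 lower in HN44, where 2.33% of tested genes were higher and 1.44% lower. Without HN44-3, 0 of the 184 passed, beside 0.553% of tested genes. At an unadjusted p under 0.05 limma then gave 23 of the 184 and 3830 of the 27140, against 53 and 7419 with 6 libraries. The split depended on the scaling. It was 1 higher and 0 lower after median-of-ratios scaling, and 4 higher and 4 lower after rescaling every library to the same total. Over all tested genes, 61.8% of the 1025 calls with 6 libraries were higher in HN44. The share was 47.6% of 962 after median-of-ratios scaling and 73.5% of 1343 after rescaling, so the split over all genes moved too.

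The genes that rose were LOC100806541 and LOC100305752, neither with a role in the files. LOC100806541 on chromosome 14 stood at 1261, 895 and 1073 FPKM in HN44, against 289, 467 and 295 in SN14. Its log2 difference was 1.64 ± 0.25 (SE), and its limma adjusted p was 0.0212, or 0.139 without HN44-3. LOC100305752 on chromosome 15 stood at 2168, 2304 and 2271 FPKM in HN44, against 575, 768 and 1179 in SN14. Its HN44 libraries agreed within 1.06-fold, its log2 difference was 1.48 ± 0.27 (SE), and its limma adjusted p was 0.0378, and 0.201 without HN44-3. In both genes every HN44 library exceeded every SN14 library by a clear gap.

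Those that fell were LOC100815459, GH and LOC100500317. LOC100815459 on chromosome 15 stood at 41.7, 260 and 140 FPKM in HN44, against 1331, 886 and 1002 in SN14. Its log2 difference was -3.19 ± 0.61 (SE), and its limma adjusted p was 0.044, or 0.174 without HN44-3. Its span of 37040 bases overlaps 4 other expressed rows, so that reads may be divided among them. GH on chromosome 13 stood at 140, 477 and 280 FPKM in HN44, against 1124, 1229 and 973 in SN14. Its log2 difference was -2.05 ± 0.42 (SE), and its limma adjusted p was 0.0495, or 0.217 without HN44-3. LOC100500317 on chromosome 18 stood at 1158, 1719 and 1422 FPKM in HN44, against 2945, 2667 and 2777 in SN14. Its log2 difference was -0.98 ± 0.19 (SE), and its limma adjusted p was 0.0466, or 0.245 without HN44-3. LOC100806541 reached the level of 500 FPKM only through HN44, and GH and LOC100815459 only through SN14. A gene that enters the list through 1 genotype alone must have the higher mean there, so these 3 add no support for a difference among abundant genes.

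Of the 184 genes, 150 had a mean of at least 500 FPKM in both genotypes, 24 were under it in HN44 and 10 in SN14. Genes with an average under the level in 1 genotype had to differ in their means, if only slightly, and their values are a description. Among them were 3 with a wide spread that did not pass. MIPS4, for myo-inositol phosphate synthase, which makes inositol from glucose phosphate, stood at 1622, 1225 and 1467 FPKM in HN44, against 241, 686 and 141 in SN14. Its adjusted p was 0.0653 by limma, or 0.253 without HN44-3, and its SN14 libraries were 4.85-fold apart. LOC100800820 stood at 2155, 753 and 1573 FPKM in HN44, against 177, 514 and 129 in SN14, with a limma adjusted p of 0.0636, or 0.254 without HN44-3. The germin gene GER8 stood at 107, 304 and 185 FPKM in HN44, against 1810, 433 and 666 in SN14, with a limma adjusted p of 0.0863, or 0.299 without HN44-3. MIPS4 and LOC100800820 reached the level only through HN44 and GER8 only through SN14. A narrower spread did not always go with a call: LOC100306375 averaged 361 FPKM in HN44 and 844 in SN14, its libraries were 1.78-fold and 1.47-fold apart, and its limma adjusted p was 0.0521, or 0.239 without HN44-3.

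Taken over the list, 126 genes had a negative and 58 a positive log2 difference, and 161 differed by under 2-fold. The median was -0.27 over the 184 genes, beside 0.17 over all tested genes and 0.05 over the 789 genes with a mean of 100 to 500 FPKM. Median-of-ratios scaling moved the median of all tested genes to 0.02 and that of the 184 to -0.46, and changed the direction of 18 of them. Rescaling every library to the same total moved the median of the 184 the other way, to -0.135, and changed the direction of 19. Scaling by the total of all rows outside the 184 gave -0.16. Groups did not overlap in 27 of the 184 genes with HN44 higher, or 14.7%, beside 23.3% of tested genes. With HN44 lower they did not overlap in 43, or 23.4%, beside 10.5% of tested genes. Without HN44-3 these counts were 27 and 44, for which no share over all tested genes was computed. All these counts were taken with the 34 genes under the level in 1 genotype, whose means had to differ, if only slightly. Nothing is therefore read from these counts. Among the 150 genes at the level in both genotypes, which leaves out genes that differ widely, groups did not overlap in 18 with HN44 higher, or 12%. With HN44 lower they did not overlap in 29, or 19.3%, and the median log2 difference of the 150 was -0.25. No such limit was set on the tested genes, so these shares are a description. HN44-1 was the lowest of the 6 libraries in 105 genes, and HN44-2 in 3, and without HN44-1 the median of the 184 was -0.17. Against each SN14 library in turn, the median log2 difference of the 184 was between -0.51 and -0.41 for HN44-1 and between -0.04 and -0.01 for HN44-2.

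**Figure D3:**
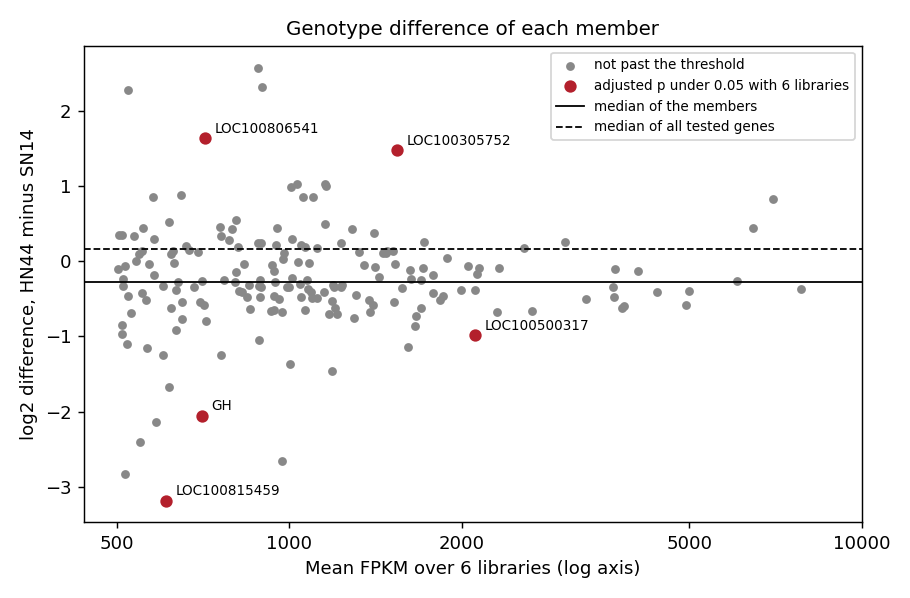
The log2 difference, HN44 minus SN14, of each of the 184 genes against its mean FPKM over the 6 libraries on a log axis, with genes past an adjusted p of 0.05 in red. The solid line is the median of the 184 genes at -0.27 and the dashed line that of all tested genes at 0.17, and the 5 red genes did not pass without HN44-3.

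Within a genotype, most of the 184 genes kept within 2-fold. The spread of a gene was taken as its highest over its lowest library on FPKM + 1. In HN44 the median over the 184 genes was 1.396-fold, and 34 genes, or 18.5%, reached 2-fold. In SN14 the median was 1.391-fold, and 26 genes, or 14.1%, did. Over all tested genes the shares at 2-fold were 9.79% in HN44 and 20.7% in SN14, and over genes of 100 to 500 FPKM 11.8% in HN44 and 24.0% in SN14. The abundant genes thus had the larger share of wide spreads in HN44, while the less abundant sets had it in SN14. This contrast was not tested. HN44-1 and HN44-2 alone gave the same median and count for the 184 genes, and 9.69% at 2-fold over all tested genes. The HN44 spread is thus nearly that between HN44-1 and HN44-2, whereas that of SN14 is over 3 libraries, so they are not directly comparable.

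In HN44 the spread lay between its libraries 1 and 2. Of the 184 genes, 138 were lower in HN44-1 than in HN44-2 and 46 were higher, with 30 at least 2-fold lower and 4 at least 2-fold higher. The median log2 difference of HN44-1 from HN44-2 was -0.42 over these genes and 0.19 over all tested genes. In SN14 the order varied from gene to gene: SN14-1, SN14-2 and SN14-3 were the highest in 55, 68 and 61 genes and the lowest in 61, 55 and 68. Libraries were also set against each other by the median over the 184 genes of the absolute log2 difference. It was 0.48 for HN44-1 against HN44-2, and between 0.28 and 0.33 for pairs of SN14 libraries. HN44-2 and SN14-2, of different genotypes, were closer than any of these pairs, at 0.19. HN44-1 and SN14-1 were farthest apart, at 0.68. Over all tested genes HN44-2 against SN14-2 gave 0.296 and SN14-1 against SN14-2 gave 0.293, so the former was not the closest there. In 34 of the 184 genes, or 18.5%, the difference between genotype means exceeded the wider of the within-genotype ranges, beside 22.02% of tested genes.

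**Figure D4:**
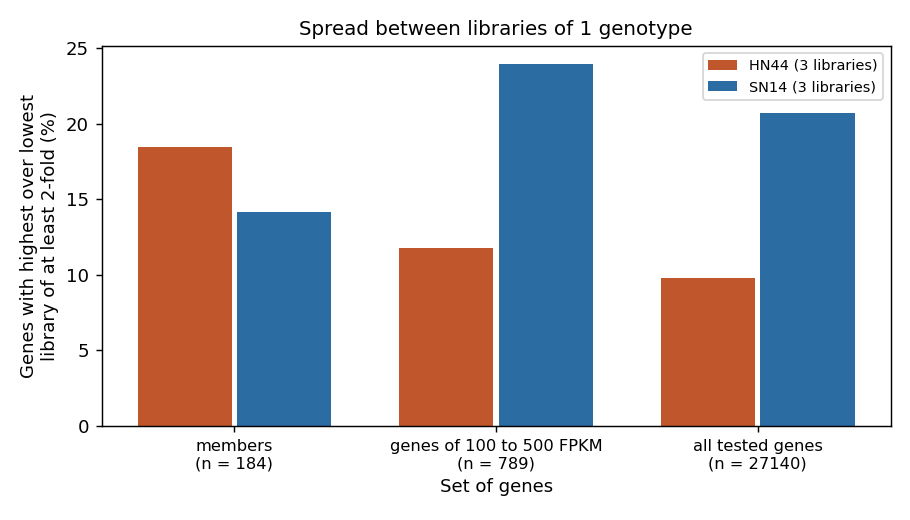
Share of genes, in percent, whose highest library was at least 2-fold above the lowest on FPKM + 1 within HN44 (orange) and within SN14 (blue), for the 184 genes, the 789 genes with a mean of 100 to 500 FPKM and all 27140 tested genes. The HN44 bar is the higher of the pair for the 184 genes, at 18.5% against 14.1%, and the lower for the other sets.

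The steadiest genes over all 6 libraries, after PETC, had no role in the files. LOC100779397 stood at 774, 860 and 837 FPKM in HN44 and 835, 898 and 796 in SN14. LOC100786122 stood at 1218, 1160 and 1177 FPKM in HN44 and 995, 1133 and 1030 in SN14. LOC100799420 stood at 1092, 970 and 1027 FPKM in HN44 and 1036, 1151 and 933 in SN14. LOC100808379, the most abundant of this group, stood at 1808, 2203 and 2005 FPKM in HN44 and 2212, 2263 and 1837 in SN14. In these 4 genes the highest library was 1.16-fold to 1.25-fold above the lowest, and none of the 4 passed the test. The log2 difference was -0.03 for LOC100779397, -0.01 for LOC100799420 and -0.07 for LOC100808379, smaller than the spread within either genotype. For LOC100786122 it was 0.17, and its HN44 libraries all stood above its SN14 libraries. In all, 35 of the 184 genes, or 19.02%, kept within 1.5-fold over the 6 libraries, beside 21.2% of tested genes, and 103 kept within 2-fold.

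Of the 5 least steady genes, 4 had their lowest value in HN44-1. These 4 reached the level of 500 FPKM only through SN14, and the fifth, LOC100783789, only through HN44. Their wide ranges and genotype differences are thus in part set by the choice. LOC100306307 on chromosome 17 stood at 12.2, 431 and 186 FPKM in HN44 and 1389, 417 and 665 in SN14, a 114-fold range. The proline-rich protein gene SBPRP on chromosome 14 stood at 40.2, 798 and 366 FPKM in HN44, against 2302, 928 and 1403 in SN14, a 57.2-fold range. The cupin gene LOC100816355 (GmCUPIN16.1) stood at 53.4, 296 and 153 FPKM in HN44, against 1858, 319 and 618 in SN14, a 34.8-fold range. In these 3 genes HN44-1 was lowest and SN14-1 highest, while HN44-2 and SN14-2 were near each other. LOC100815459, given above, followed with 31.9-fold. LOC100783789 had the opposite order, at 1097, 468 and 902 FPKM in HN44 and 49.5, 442 and 182 in SN14. There HN44-1 was highest and SN14-1 lowest, and the HN44-2 and SN14-2 values were again close. PRP3, for another proline-rich protein, had 682, 1645 and 1152 FPKM in HN44 and 1330, 3456 and 1690 in SN14, a 5.07-fold range with overlap. A few further genes have a symbol or synonym but are given no role here. MET2 had 1760, 952 and 1423 FPKM in HN44, against 754, 889 and 418 in SN14, with no overlap and an adjusted p of 0.127 by limma, or 0.371 without HN44-3. SRC1 had 808, 646 and 802 FPKM in HN44 and 619, 999.8 and 1758 in SN14. LOC732565 (SGT3) had 1524, 1421 and 1480 FPKM in HN44, against 998, 1285 and 1015 in SN14, with no overlap and an adjusted p of 0.163 by limma, or 0.446 without HN44-3. Of the 184 genes, 18 ranged over more than 5-fold and 10 over more than 10-fold, computed on FPKM + 1.

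**Figure D5:**
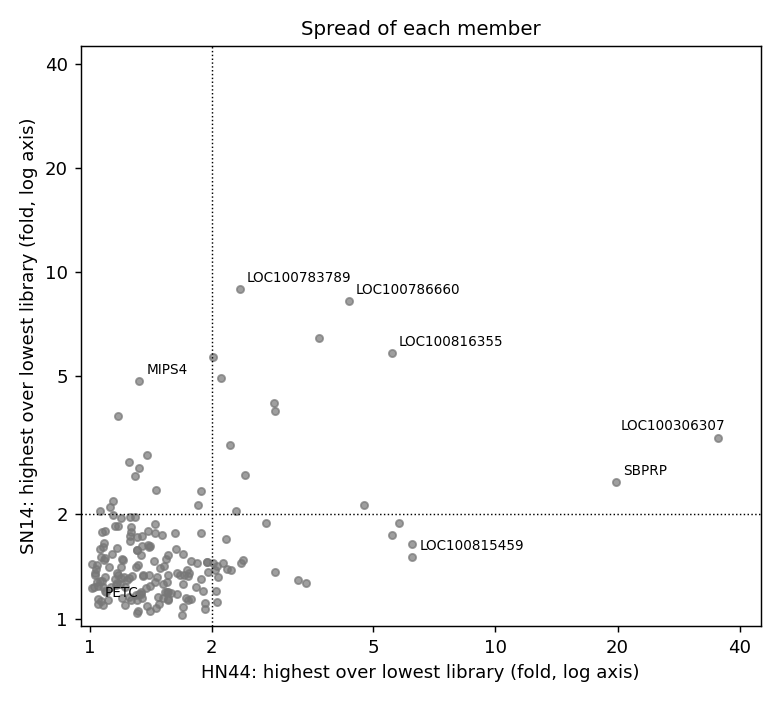
Highest over lowest library within HN44 (x axis) and within SN14 (y axis) for each of the 184 genes, both as folds on log axes with dotted lines at 2-fold. Most genes lie in the lower left corner with PETC, whereas LOC100306307 and SBPRP reach 35.4-fold and 19.8-fold within HN44 and LOC100783789 reaches 8.93-fold within SN14.

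Being among the most abundant on average did not mean being so in every library. A value of at least 500 FPKM in all 6 libraries was found for 122 of the 184 genes, or 66.3%, and 62 fell under it in at least 1 library. By library the count at 500 FPKM or more was 146, 172 and 161 in HN44-1, HN44-2 and HN44-3, and for the SN14 libraries it was, in the same order, 161, 172 and 168. The median of the 184 levels was 802, 1028 and 926 FPKM in HN44 and 1107, 1056 and 1004 in SN14. HN44-1 was the lowest by both measures.

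The genes were short, a feature that the choice did not use directly, although FPKM is scaled by transcript length. The median span from start to end in the authors' table was 2180 bases, beside 4132 over all tested genes and 2835 over genes of 100 to 500 FPKM. A span under 2000 bases was found in 48.4% of the 184 genes and in 16.1% of tested genes. Spans ran from 434 bases, for the gene with NCBI number 100526915, to 64555 bases for LOC100784089, whose span overlaps 5 other expressed rows. The genes were spread over all 20 chromosomes, with between 6 and 14 on each, and 88 lay on the plus and 96 on the minus strand. Only 4 pairs lay within 50000 bases of each other, 2 of them with overlapping spans on chromosomes 11 and 12. In 13 genes the span overlapped another row with a mean of at least 1 FPKM, so that reads may be divided between them.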

How the data were processed

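RNA was extracted from leaves with Trizol and sequenced on a BGI platform, per the labels' protocols. The authors deposited 1 table of FPKM per gene and library, per the file headers, with 2 decimals and each gene's start, end and strand. RSEM 1.2.12, HISAT2 2.0.4, DESeq2 1.4.5 and Bowtie2 2.2.5 appear, per the submitters' processing notes, with no role stated. The build behind the coordinates, which are the authors' own, is not given in these sources. RefSeq (assembly Glycine_max_v4.0) gave symbols and chromosome numbers for 37544 NCBI numbers.

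FPKM is scaled for depth, so the depth and counting error of each value are unknown. Among values under 1 FPKM present in HN44-1 and another library, the most common log2 ratio was 0 to 0.1, depending on the library. Only a minority of genes had it, from 16 of 160 for SN14-3 to 42 of 214 for SN14-2. A read of equal worth would give such a ratio, but this was not tested, and transcript lengths to turn values into reads were not used here. The share of a library is a gene's FPKM over the sum of all rows.

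The 27140 genes that reached 1 FPKM in 3 or more libraries, the 184 among them, were tested with limma 3.58.1 in R 4.3.3 on log2(FPKM + 1) with a variance trend, all 6 libraries and no covariate. Benjamini-Hochberg adjustment ran over all tested genes. Differences are HN44 minus SN14 on that scale. The fit was also run on simulated data with known changes. Those data held 6 independent libraries, so the run does not address an HN44-3 that is not independent. Shares were compared with an exact permutation test, 1 value per library.

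Named are the 10 most abundant genes, those past the threshold, the 5 steadiest and 5 least steady over 6 libraries, the genes at the edge of the level, and up to 3 per role list. Other genes with a symbol, LOC100800820, LOC100306375 and the gene with the shortest and the one with the longest span were named after their values were seen. The genes and lists were chosen with earlier results of these data known. The planned comparison of protein and promoter sequences was not run, as no sequence was used here. Alternatives were other pseudocounts, filters, scalings, levels and left-out libraries.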

Additional observations from a re-analysis of the deposited data

How the results depend on the processing

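Of the 184 genes, 5 passed with 6 libraries, 3 with a pseudocount of 0.1 and 1 with no filter on low values. Median-of-ratios scaling gave 1, and rescaling every library to the same total gave 8. Over all genes these settings gave 911, 779, 962 and 1343, in the same order, against 1025. At a level of 300 FPKM 10 of 294 genes passed, and at 1000 FPKM 2 of 92, beside 3.78% of all tested genes. Leaving out each library gave 0 to 7, with 0 without HN44-3, 1 without HN44-1, SN14-1 or SN14-3, 6 without SN14-2 and 7 without HN44-2. Over all genes, leaving out a library gave 150 to 961 against 1025, the lowest without HN44-3, with 276 without HN44-1 and 478 without SN14-3. The replicate block gave 0 of the 184 and 174 of all genes; deviations of same-numbered libraries correlated at -0.223, -0.436 and 0.0296, so the numbers were not taken to pair the libraries. The median log2 difference of the 184, -0.27, was -0.46 after median-of-ratios scaling. It was -0.135 after rescaling every library to the same total and -0.16 after scaling by the total of all rows outside the 184. The median SD of log2 values within HN44, 0.24, was 0.34 after median-of-ratios scaling and 0.34 for HN44-1 and HN44-2 only. The cause was not tested in any of these.

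The difference in summed share kept its sign under the 13 alternatives, from -6.94 points with the left-out genes kept to -0.42 without HN44-1. Over 14 alternatives the limma adjusted p ranged from 0.0151 to 0.139 for LOC100806541, which passed in 10, from 0.0228 to 0.201 for LOC100305752 (6), from 0.0307 to 0.174 for LOC100815459 (7), from 0.038 to 0.245 for LOC100500317 (5) and from 0.0287 to 0.217 for GH (4). None of these 5 changed direction.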
